A study of Caenorhabditis elegans with 4 samples.

Results

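Copper-treated *kgb-1* mutants were compared with copper-treated wild-type animals on Affymetrix *C. elegans* GeneChips, with 1 array on each side. KGB-1 is a JNK-like MAP kinase of *C. elegans*. It is activated by the kinase MEK-1, which acts under MLK-1, and it is inactivated by the phosphatase VHP-1. Animals without this cascade are known to be hypersensitive to heavy metals such as copper.

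The series holds 4 arrays, 1 for each of 4 conditions. Wild-type animals were of the N2 Bristol strain, and the mutants carried the *kgb-1(km21)* allele. All were adults on day 1, grown at 20 °C on OP50 bacteria, and were kept for 1 h in water or in 1 mM copper sulfate before total RNA of whole animals was extracted. The sources used here do not say whether the pair of arrays of a strain came from 1 culture. In RNA of whole animals, fewer cells of a type and less RNA per cell cannot be told apart. The values were MAS5 signal intensities, which are linear measures of brightness for a probe set, a group of probes that report a transcript.

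A probe set was included if it measured a worm transcript and if the brighter of its signals on the 2 copper arrays reached 100. Of 22548 worm probe sets, 10993 (48.8%) met this rule and 11555 did not. Of the members, 10478 had 1 gene symbol, 341 had several, and 174 had none, and together they named 8351 of the 17118 genes on the array. The lowest brighter signal inside the limit was 100.018 (*ttr-27*), and the highest outside was 99.968 (*spat-1*). In the band from 100 to 110, 12 of 284 probe sets were 2-fold lower and 11 were 2-fold higher in the mutants. In the band from 90 to 100, 31 of 402 were 2-fold lower and 22 were 2-fold higher.

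With 1 array on each side, a ratio has no replicate error and no p-value. Hybridization controls gave a technical scale for that step, which leaves out differences from culture, RNA extraction and labelling. The log2 ratios of 18 such probe sets had an SD of 0.19, and the largest was 0.54 in size. The untreated arrays gave a second look at the same genotypes that used neither copper array. Signals of a strain are given in pairs, first without and then with copper. Genes named for a large ratio had the order of their copper arrays fixed by that choice. In the following, a log2 ratio is the mutant over the wild type, so a negative value means a lower signal in the mutants. Where the dimmer signal was below 100, the fold is against 100 and is written as "at least".

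Most transcripts had similar signals in both strains. The median log2 ratio of the members was -0.003 with an SD of 0.41, and 85.7% of them lay within 0.5 of 0. At least a 2-fold lower signal in the mutants was found for 158 probe sets (1.44% of members), which named 140 genes. At least a 2-fold higher signal was found for 131 probe sets (1.19%), which named 120 genes. Of the lower sets, 99 had a mutant signal below 100, and 78 kept a 2-fold difference when every signal below 100 was raised to 100. Of the higher sets, 62 had a wild-type signal below 100, and 78 remained past 2-fold. At 4-fold on that scale, 10 probe sets were lower in the mutants and 1 was higher.

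The lower genes were led by *kreg-1*, a gene that the study selected as KGB-1 regulated, first on these arrays and then by qRT-PCR. In wild-type animals its signal was 176 without and 1034 with copper, against 37.2 and 122 in the mutants. It was 8.50-fold lower in copper-treated mutants. The copper-treated mutant array thus lay below even the untreated wild-type array. *M02H5.8*, a gene on chromosome V, had 676 and 716 in the wild type against 71.4 and 84.5 in the mutants, a deficit of at least 7.16-fold. Unlike *kreg-1*, it differed between strains by about the same size without copper, with log2 ratios of -3.24 and -3.08.

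*K11H12.4*, also on the study's list, had signals of 330.2 and 894 in the wild type against 79.4 and 193 in the mutants, and was 4.63-fold lower. Its mutant signals lay below both wild-type signals, an order not counted over all members. The lysozyme gene *lys-3* is the study's *kreg-2* and is also on that list. It had 89.9 and 318 in the wild type against 4.31 and 15.4 in the mutants, a deficit of at least 3.18-fold under copper. Its neighbour *lys-2*, another lysozyme gene, was far brighter, with 2922 and 3795 in the wild type against 1544 and 1506 in the mutants. It was 2.52-fold lower in copper-treated mutants. Both lysozymes were lower in the mutants on either pair of arrays. The share of all members lower on both pairs was not counted.

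Genes of the cell surface followed. *clc-1*, a claudin-like membrane protein gene, had signals of 916 and 1370 in the wild type against 331 and 379 in the mutants on its brighter probe set, 3.61-fold lower. A second probe set of *clc-1* was 2.56-fold lower. *clc-19*, of the same family, was among the genes that the study took to qRT-PCR but not on its final list. It had 355 and 1057 in wild-type animals against 135 and 294 in the mutants, a 3.60-fold difference. The tetraspanin gene *tsp-2*, which encodes a protein that spans the membrane repeatedly, had 317 and 497 in the wild type against 83.1 and 111 in the mutants. It was 4.49-fold lower. For *clc-1* and *tsp-2*, both mutant arrays lay below both wild-type arrays, and the same held for *clc-19*. The order of the copper arrays was fixed by the choice of genes, and the share of all members without overlap was not counted.

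*clec-66*, a C-type lectin gene, had 395 and 524 in the wild type against 111 and 121 in the mutants, a 4.32-fold difference. *cpr-3*, a cathepsin B-like protease gene, had 337 and 454 in the wild type against 90.7 and 89.7 in the mutants, a deficit of at least 4.54-fold. Its second probe set was 2.47-fold lower. *cyp-13A5*, a cytochrome P450 gene, had 647 and 921 in the wild type against 244 and 315 in the mutants. *F41F3.3*, a brighter transcript, had 2140 and 3198 in the wild type against 775 and 833 in the mutants, a 3.84-fold difference. In these 4 genes the strains did not overlap over the 4 arrays. The share of all members without such overlap was not counted.

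*ram-2*, named for a ray defect of the male tail, differed more with copper than without on 1 probe set. Its brighter probe set had 1734 and 1234 in the wild type against 1164 and 220.4 in the mutants, with log2 ratios of -2.48 under copper and -0.57 without. A second probe set had 869 and 811 in the wild type against 385 and 430.2 in the mutants. That set gave log2 ratios of -0.91 with and -1.17 without copper. Both sets were lower in the mutants, and they disagreed on whether the difference was larger with copper.

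The plot of signals for the leading genes sets these values beside each other. Among the 15 lower genes, both mutant arrays lay to the left of both wild-type arrays for every gene. For the copper arrays this order was fixed by the choice of genes, and its share over all members was not counted. Among the 15 higher genes, the copper-treated wild-type array was often the one that stood apart.

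**Figure D1:**
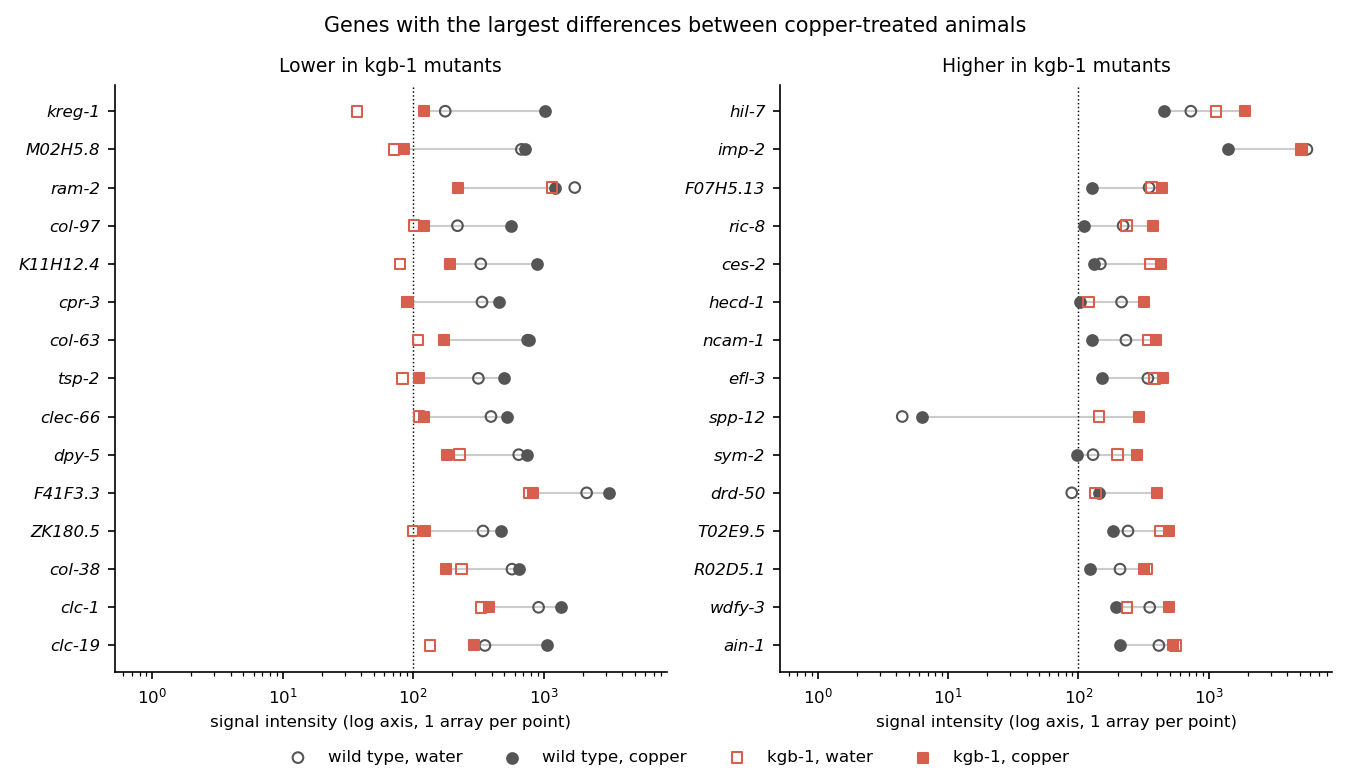
Signal intensities (log axis) on each of the 4 arrays for the 15 genes with the largest lower (left) and higher (right) differences between copper-treated *kgb-1* mutants and copper-treated wild-type animals. Circles are wild type and squares are mutants, filled with copper and open without, the grey line joins the copper arrays, and the dotted line marks the minimum of 100; *imp-2* is low only on the copper-treated wild-type array at 1392.

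Many of the lower genes were also lower without copper. Of the 158 lower probe sets, 126 (79.7%) had a negative log2 ratio on the untreated arrays, against 47.3% of all members. A 2-fold lower signal on both pairs was found for 67 (42.4%), against 0.992% of all members on the untreated pair. With signals raised to 100, 31 were lower on both pairs. The median log2 ratio of the 158 was -1.35 with copper and -0.78 without. Of the 131 higher probe sets, 97 (74.0%) had a positive log2 ratio on the untreated arrays, against 52.7% of all members. A 2-fold higher signal on both pairs was found for 17 of the 131, against 0.682% of all members, and for 7 with signals raised. The medians were 1.19 with and 0.27 without copper. The first of each pair of medians was fixed by the choice of the probe sets, whereas the untreated arrays took no part in it.

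Over the 10993 members, the log2 ratios of both pairs had a Pearson r of 0.39 and a Spearman rho of 0.23. Over the 9815 members at 100 or more on all 4 arrays, these were 0.32 and 0.22. The points share the probes and their brightness, and genes are not independent replicates, so no p is given.

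**Figure D2:**
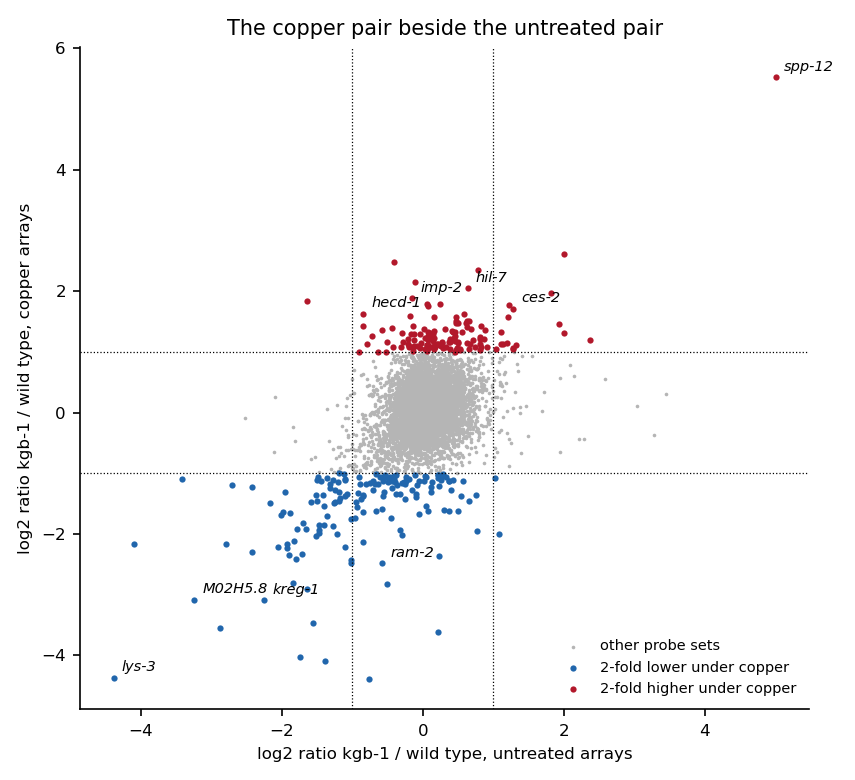
Log2 ratio of *kgb-1* over wild type on the untreated arrays (horizontal) and on the copper arrays (vertical), 1 point for each of the 10993 probe sets, with dotted lines at 2-fold. Blue points are the 158 lower and red points the 131 higher probe sets under copper; 67 of the blue and 17 of the red points are also past 2-fold in the same direction without copper.

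A test across both pairs was possible only in a model with genotype and copper as additive factors. In this test the error is the disagreement between treatments, so a difference seen only with copper fails by construction. Culture differences shared by the water and copper samples of a strain count as genotype, and these and the mutation cannot be told apart. By limma, after Benjamini-Hochberg adjustment over 11266 probe sets, 32 were lower in the mutants (0.284%) and 6 were higher (0.0533%), with 1213 at an unadjusted p under 0.05. Of the 158 and 131 probe sets past 2-fold under copper, 25 and 4 passed in the same direction, and the copper arrays entered both counts. The lowest adjusted p among the genes named above was 0.0074 (*M02H5.8*), and it was 0.0219 for *kreg-1*, 0.0194 for *K11H12.4* and 0.0384 for *lys-2*. With signals below 100 raised to 100, the test called 2 lower probe sets and 0 higher ones. *M02H5.8* was 1 of the 2, with an adjusted p of 0.0244, and *kreg-1* no longer passed, at 0.319.

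Cuticle collagens, the structural proteins of the worm's outer coat, held the most lower probe sets of the 49 gene lists. Of 101 collagen probe sets, 16 (15.8%) were 2-fold lower and 3 were higher, against 1.44% and 1.19% of all members. With signals raised to 100 these counts were 9 and 1. The list median was -0.20, against -0.003 for all members. On the untreated arrays, 16 were lower and 3 higher, and the median was -0.05. In the genotype test, 5 were lower and 1 was higher. Under copper, the signal summed over the list was 530596 for the wild type and 501332 for the mutants. Without copper the sums were 479992 and 484861.

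*col-97* had signals of 219 and 563 in the wild type against 102 and 121 in the mutants, and was 4.66-fold lower under copper. Its second probe set had 186 and 208 against 92.2 and 37.1. *col-63* had 755 and 778 in the wild type against 109 and 173 in the mutants, 4.51-fold lower, and its log2 ratio was -2.79 without copper. *dpy-5*, a collagen gene whose mutants are short and fat, had 645 and 748 in the wild type against 226 and 182 in the mutants, a 4.12-fold difference. *col-38* had 573 and 649.6 in the wild type against 236 and 177 in the mutants. The 4 genes shared a higher signal on both wild-type arrays than on either mutant array, an order not counted over all members.

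Other collagen genes named for the body shape of their mutants were also among them. *rol-8* had 331 and 325 in the wild type against 89.7 and 103 in the mutants, 3.16-fold lower, and -0.69 on the log2 scale on a dim second set. *rol-6* had 203 and 259.6 in the wild type against 113 and 101 in the mutants, 2.58-fold lower. *sqt-1* had 191 and 216 in the wild type against 82.5 and 53.8 in the mutants, a deficit of at least 2.16-fold. Not every collagen was lower. *dpy-14* had 732 and 677 in the wild type against 1222 and 1426 in the mutants, 2.11-fold higher, and *col-121* was higher on 2 dim probe sets. For *col-173*, *col-148* and *col-72* the log2 ratio was positive without copper and negative with copper, with dim signals of at most 171.

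Other families with lower members were smaller. Of 20 tetraspanin and claudin-like probe sets, 5 were 2-fold lower (1.44% of all members) and 0 higher, all 5 of them with signals raised to 100, and the same number were lower without copper. They belong to *tsp-1*, *tsp-2*, *clc-1* and *clc-19*. The genotype test called 4 of the list, and the list median was -0.10, so most of the family showed no such difference. Of 52 glutamine-rich *abu* and *pqn* probe sets, 5 were lower (1.44% of all members), of which 3 stayed past 2-fold with signals raised, and 0 were higher, with a median of -0.14. The brightest of these was *abu-14*, with 219 and 359 in the wild type against 169 and 142 in the mutants, and a log2 ratio of -0.90 on a second set. Several *abu* probe sets share probes with related genes, so they cannot be read as separate genes.

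Hedgehog-related genes encode secreted proteins, many of them made by the epidermis, and were listed together with patched-related genes. Of the 33 probe sets on this joint list, 3 were lower (1.44% of all members) and 0 higher, with a median of -0.18. Of the 3, 1 stayed past 2-fold with signals raised. *grl-21* had 154 and 177 in the wild type against 44.2 and 33.2 in the mutants, a deficit of at least 1.77-fold. *grl-5* had 197 and 245 against 125 and 122, and *grl-7* was near the minimum.

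Among genes of defence, 2 of 12 lysozyme probe sets (*lys-2* and *lys-3*) were lower, as were 3 of 26 infection response probe sets. Over all members the lower share was 1.44%. None of either list was higher (1.19% of all members). With signals raised, 2 of each list stayed 2-fold lower. *dod-19*, named as a gene downstream of DAF-16, had 971 and 1322 in the wild type against 624 and 585 in the mutants on its brighter probe set, and was lower on both of its sets. *irg-1*, a gene induced by infection, had 89.1 and 190.4 in the wild type against 49.7 and 61.4 in the mutants. Others went the opposite way. *irg-5* had 149 and 179 in the wild type against 364 and 356 in the mutants, a 1.99-fold higher signal, and *lys-4* had 4657 and 5180 against 8322 and 7551. Of 56 C-type lectin probe sets, 3 were lower (1.44% of all members) and 1 was higher (1.19%), with a median of -0.04. With signals raised, 1 of the 3 stayed past 2-fold.

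Galectins, which bind sugars that carry galactose, had 0 of 16 probe sets past 2-fold under copper. The log2 ratio was negative for 11 of them. The list median was -0.28 with copper and -0.20 without, against -0.003 with copper for all members. *lec-8* had 4175 and 3933 in the wild type against 2262 and 2020.3 in the mutants, with a log2 ratio of -0.96. *lec-10* had 4554 and 6047 against 2740.3 and 3444, and *lec-11* had 1110.1 and 1808 against 402 and 916. These 3 passed the genotype test in limma, with adjusted p of 0.026, 0.0384 and 0.0458, and none passed with signals raised.

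**Figure D3:**
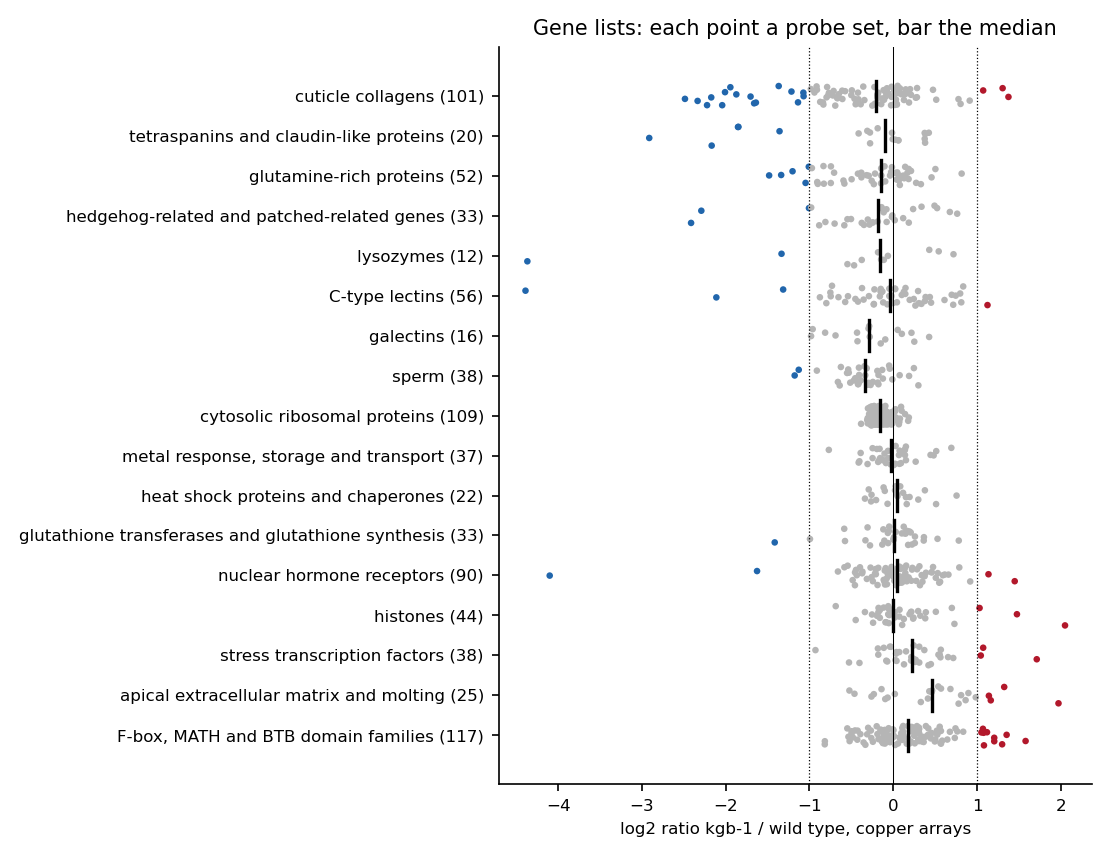
Log2 ratio of *kgb-1* over wild type on the copper arrays (horizontal) for 17 gene lists, with the number of probe sets in brackets, 1 point for each probe set and a black bar at each median. Blue and red points are past 2-fold (dotted lines); 16 of 101 collagen probe sets are blue and 10 of 117 in the F-box, MATH and BTB list are red.

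The higher genes were led by *hil-7*, which encodes a linker histone variant. The probe set with the largest ratio had signals of 727 and 454 in the wild type against 1131 and 1883 in the mutants, 4.15-fold higher under copper. The other probe sets of *hil-7* were 2.79-fold and 2.04-fold higher. All 3 carry a suffix for probes shared with other transcripts. In each of them both mutant arrays lay above the copper-treated wild-type array, an order not counted over all members. The log2 ratios without copper were between 0.50 and 0.81.

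*ces-2*, a bZIP transcription factor gene known for specifying a programmed cell death, differed on both pairs. It had 147 and 131 in the wild type against 358 and 429 in the mutants, a 3.28-fold higher signal with copper. It passed the genotype test (adjusted p = 0.0397 from limma) but not with signals raised (0.0912), although none of its signals was below 100. *hch-1*, a protease gene known for its role in hatching, had 203 and 213 in the wild type against 464 and 471 in the mutants, 2.21-fold higher. *spp-12*, which encodes a saposin-like protein, had 4.46 and 6.36 in the wild type against 144 and 293 in the mutants, at least 2.93-fold higher. Both wild-type signals of *spp-12* were far below the minimum, and both mutant signals were above it. It did not pass the genotype test (adjusted p = 0.0701).

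In other genes, the copper-treated wild-type array had the lowest signal of the 4, and the untreated strains were close. *imp-2*, an intramembrane protease gene known to be needed for molting, had 5642 and 1392 in the wild type against 5090.2 and 5129 in the mutants. This made it 3.69-fold higher in copper-treated mutants, with a log2 ratio of -0.15 without copper. *F07H5.13* had 348 and 128 in the wild type against 363 and 441 in the mutants. *ric-8*, which encodes an exchange factor for G proteins, had 220.1 and 110.4 in the wild type against 232 and 374 in the mutants. *efl-3*, an E2F family gene, had 341 and 151 in the wild type against 381 and 448 in the mutants. In these 4 genes the untreated strains differed by at most 0.16 on the log2 scale.

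Over all higher probe sets, the copper-treated wild-type array was the lowest of the 4 in 79.4%, against 29.4% of all members. The median signals were 155 and 111 in the wild type against 199.7 and 276 in the mutants, without and with copper. Over the lower probe sets, it was the highest of the 4 in 86.7%, against 30.6% of all members. The choice of probe sets by the copper pair partly fixes both counts, since that array had to be the lower or the higher of its pair.

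Where a higher gene had a second probe set, the difference often did not recur. Of 63 other member probe sets of 54 higher genes, none was past 2-fold by construction, and 35 had a positive log2 ratio, not far from an even split. The second set of *imp-2* had 2948 and 3569 in the wild type against 2856 and 3198 in the mutants, with a log2 ratio of -0.16 under copper. The second set of *ric-8* gave -0.16, and other sets of *ftt-2*, a 14-3-3 gene, gave -0.18 and -0.01 against 1.29 on the set past 2-fold. The second set of *duo-3* gave -0.08 against 1.26. These genes were therefore not measured as higher by all of their probes.

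In other genes the second member set went the same way, with sets below the minimum left out. The second set of *mlt-11*, a gene needed for molting, gave 0.99 against 1.33, that of *efl-3* gave 0.58 against 1.57, and that of *wdfy-3* gave 0.60 against 1.36. Among the lower genes, 22 other probe sets of 19 genes were not past 2-fold. Of these 22, 12 had a negative log2 ratio, also not far from an even split. More than 1 probe set was past 2-fold for *clc-1*, *col-97*, *cpr-3*, *dod-19*, *nhr-50* and *srlf-30* on the lower side, and for *F53B3.5*, *col-121* and *hil-7* on the higher side.

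**Figure D4:**
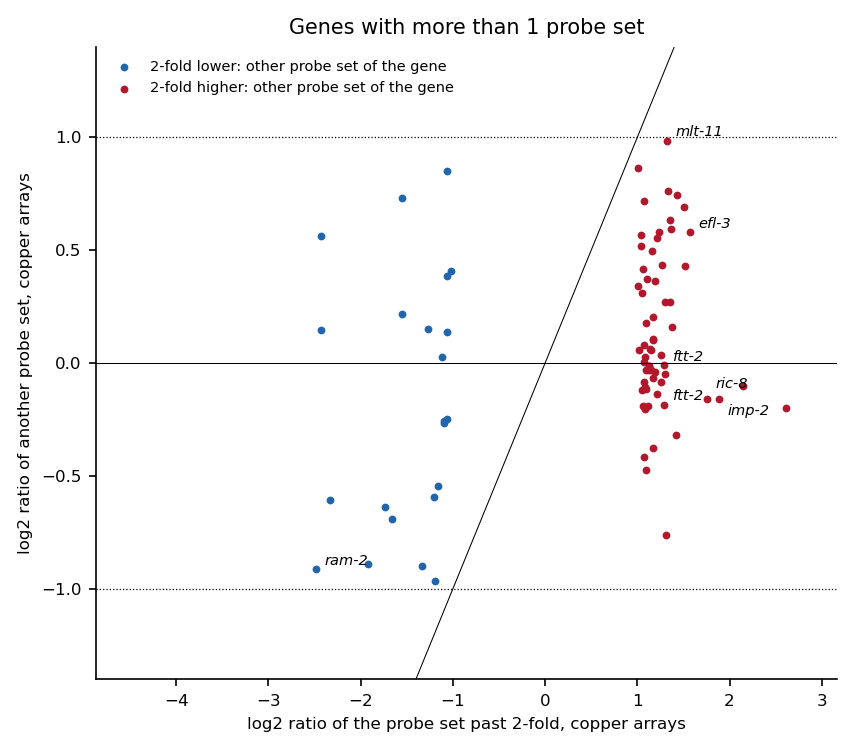
For genes with a probe set past 2-fold under copper (horizontal, log2 ratio of the set with the largest ratio), the log2 ratio of another member probe set of the same gene (vertical), with the line of equality drawn. Blue points are genes with a lower set (22 other sets) and red points genes with a higher set (63 other sets); the other set of *imp-2* lies at -0.16.

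F-box, MATH and BTB proteins recruit substrates to ubiquitin ligases, and they form large families in *C. elegans*. Of 117 such probe sets, 10 were 2-fold higher (1.19% of all members) and 0 lower, with a median of 0.18, against -0.003 for all members. On the untreated arrays, 4 were higher and 0 lower, with a median of 0.04. Of the 10, 4 stayed past 2-fold with signals raised to 100. *btb-11* had 313 and 404 in the wild type against 760.4 and 849 in the mutants, 2.10-fold higher. *fbxb-41* had 183 and 209.99 in the wild type against 456 and 456 in the mutants, 2.17-fold higher. *fbxc-40* had 192 and 166 in the wild type against 469 and 344 in the mutants, 2.08-fold higher. *btb-11* and *fbxb-41* passed the genotype test (adjusted p = 0.0323 and 0.0397 from limma), and neither passed with signals raised (0.0912 and 0.0925).

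Several of these genes are neighbours. Here a run is a set of genes past 2-fold in the same direction whose starts follow each other within 30 kb in the RefSeq annotation. On chromosome II, *fbxc-40*, *fbxc-39*, *fbxb-30*, *btb-11*, *fbxb-41* and *fbxb-40* formed a run, which held 8 genes with a member probe set. The other 2 were *fbxc-42*, with log2 ratios of 0.57 with and 0.42 without copper, and *F45D11.5*, with 0.87 and 1.12. All 8 were higher in the mutants on both pairs of arrays. For the genes that formed the run, the copper direction was fixed by the choice. The share of all members higher on both pairs was not counted. Some of these genes were dim. With signals raised to the minimum, the log2 ratios with and without copper were 0.47 and 0 for *fbxc-39*. They were 0.19 and 0.21 for *fbxb-30*, and 1.04 and 0.63 for *fbxb-40*. Beyond the run, *C32B5.15* had 0.21 and 0.56 and *btb-10* had 0.26 and 0.15.

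Neighbours recurred among the lower genes as well. Of 140 lower genes, 30 (21.4%) had another lower gene within 30 kb, against 8.24% of all 8339 placed member genes. For the 120 higher genes it was 12, against 6.98%. Next to *kreg-1* on chromosome X, *F53A9.1* had 581 and 1169.7 in the wild type against 303 and 398 in the mutants, a log2 ratio of -1.56. *F53A9.9* had 148 and 221 against 109.6 and 101, a log2 ratio of -1.13. Between them, *F53A9.6* and *F53A9.8* had -0.77 and -0.62, *F53A9.7* had -0.28 near the minimum, and the troponin gene *tnt-2* beyond had -0.01. Other such groups were *tsp-2*, *tsp-1* and *col-91* on chromosome III, *lys-2* and *lys-3* on chromosome V, and *dod-19*, *B0554.2* and *M02H5.8* on the same chromosome. These were not all unbroken blocks. The *tsp-2* group spanned 9 member genes, and those not named here had log2 ratios under copper between -0.21 and 0.20. In the *dod-19* group, *irg-8* had -0.65. With signals raised to the minimum, *col-91* had -0.21 and *B0554.2* had -0.27. The other named genes of these groups stayed past 2-fold.

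**Figure D5:**
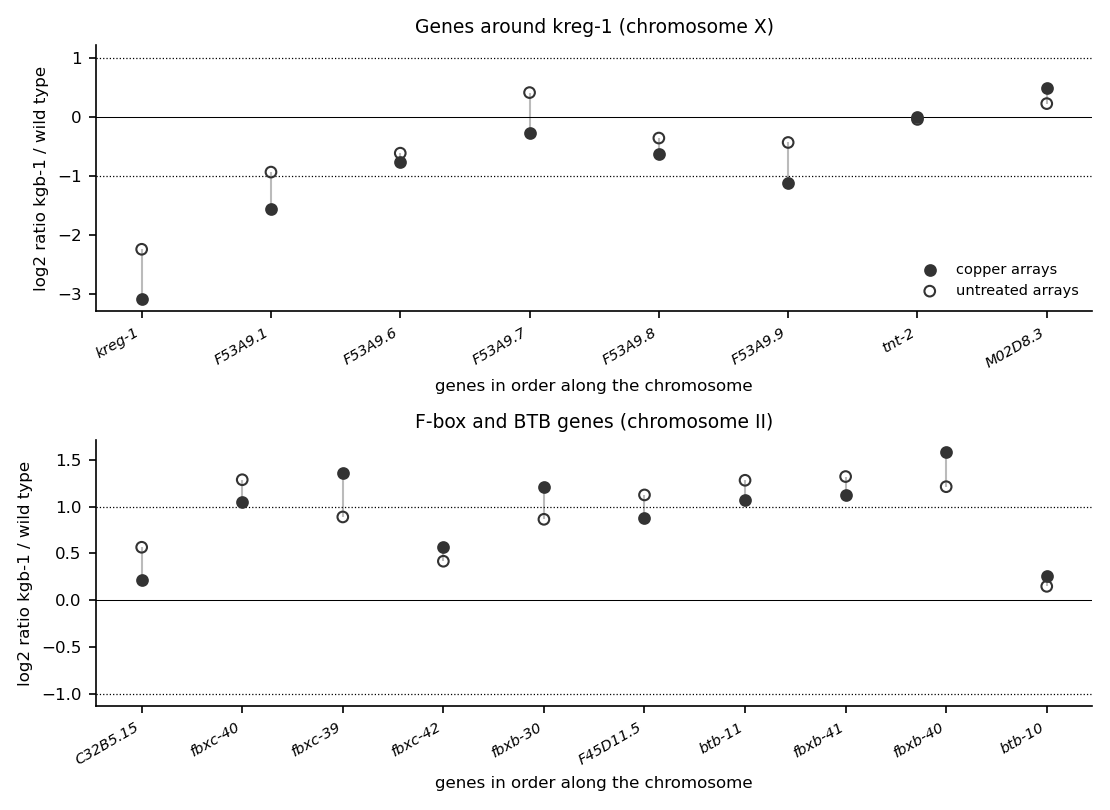
Log2 ratio of *kgb-1* over wild type for probe sets of neighbouring genes, in their order along the chromosome, around *kreg-1* (top) and across a run of F-box and BTB genes (bottom). Filled points are the copper arrays and open points the untreated arrays, with dotted lines at 2-fold; 6 of the genes in the lower panel are past 2-fold higher under copper.

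By chromosome, the lower share was largest on V, with 46 of 1794 members (2.56%), and the higher share on X, with 35 of 1465 (2.39%). The shares on the other autosomes were between 0.894% and 1.5% lower and between 0.636% and 1.5% higher. On the untreated arrays the higher share on X was 0.546%. Within 1 Mb of *kgb-1* on chromosome IV, 3 of 122 members were lower and 2 higher, against 23 and 24 of 1610 on the rest of that chromosome.

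Some single regulators had 2-fold higher signals in the mutants. Of 38 probe sets for stress transcription factors, 3 were higher (1.19% of all members) and 0 lower (1.44%), with a median of 0.22 with copper and 0.08 without. Besides *ces-2*, these were *hlh-30*, a regulator of autophagy genes, with 722 and 307 in the wild type against 810.4 and 634 in the mutants, and *elt-3*, an epidermal GATA factor gene, with 411 and 137 against 517 and 289. Both had their lowest signal in copper-treated wild-type animals. Their other member probe sets gave log2 ratios of 0.31 and 0.72 under copper. *lin-35*, the retinoblastoma homologue, had 487 and 265 in the wild type against 859 and 632 in the mutants on 1 probe set, 2.38-fold higher. A second, brighter set of *lin-35* had 870.03 and 726 against 789 and 744, a log2 ratio of 0.04. *hbl-1* had 275 and 273 against 485 and 636. Of 25 probe sets for apical matrix and molting genes, 4 were higher (1.19% of all members) and 0 lower (1.44%). The 4 were of *cutl-2*, *cutl-25*, *dyf-7* and *mlt-11*, and the list medians were 0.46 with and 0.27 without copper. With signals raised to 100, 1 of the 4 stayed past 2-fold. The wild-type signals of *cutl-2* were 32.2 and 32.5, and a second set of *dyf-7* gave -0.07 under copper. Of 44 histone probe sets, 3 were higher (1.19% of all members), all of *hil-7*, and the list median was -0.0056.

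The cascade itself was mostly similar in both strains. Of 20 probe sets for KGB-1, its upstream kinases, phosphatase, substrates and partners, 1 was higher (1.19% of all members) and 0 lower (1.44%). The list median was -0.23 with copper and -0.05 without. The higher one was *max-2*, a PAK-family kinase gene placed upstream of MLK-1, with 931 and 718 in the wild type against 1037 and 1672 in the mutants. *mek-1* had 2937 and 2988 in the wild type against 2503 and 2365 in the mutants. *fos-1*, which encodes a Fos-like factor, gave log2 ratios of 0.26 and -0.37 on its 2 probe sets, and *jun-1* gave 0.09 and -0.63. *vhp-1* gave 0.29 and -0.63. *kgb-2*, the closest relative of *kgb-1*, had 136 and 234 in the wild type against 115 and 129.9 in the mutants. The *kgb-1* probe set had 128 and 314 in the wild type against 179 and 229 in the mutants. Where its probes lie relative to the *km21* deletion is not given in the sources used here, so this checks nothing about the genotype.

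The lists that the study chose on these arrays, the KGB-1 regulated one also by qRT-PCR, are not independent evidence of a direction. Of the genes it called KGB-1 regulated, 4 had a probe set of their own (5 sets), and these 5 were 2-fold lower under copper. *Y105C5A.12* and *Y105C5A.13* share 1 probe set with each other, and it is not counted. Of 13 probe sets on the array for the genes it took to qRT-PCR, 9 reached the minimum, and these 9 (8 genes) were 2-fold lower, against 1.44% of all members. On the untreated arrays, 4 of the 5 and 5 of the 9 were 2-fold lower. *ugt-13* was among the genes of these lists that differed only with copper, with 109.9 and 437 in the wild type against 114 and 209 in the mutants. *nlp-24*, which encodes an antimicrobial peptide precursor, had 74.2 and 239 in the wild type against 59.5 and 62.7 in the mutants, a deficit of at least 2.39-fold. *T28A11.4* and *nhr-50*, a nuclear hormone receptor gene, exceeded 100 only in copper-treated wild-type animals.

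Genes for the classical responses to metal and to damaged protein were within 2-fold. Over all members only 1.44% were 2-fold lower and 1.19% higher, so a count of 0 in such a list says little about the family. Of 37 probe sets for metal response, storage and transport, 0 were past 2-fold, with a median of -0.03 and a range from -0.77 to 0.69. The lowest was *ttm-1*, a zinc transporter gene, with 646 and 1243 in the wild type against 432 and 729.7 in the mutants. Of 22 heat shock protein probe sets, 0 were past 2-fold. *hsp-16.41*, a small heat shock protein gene, had 531 and 655 in the wild type against 502 and 1106 in the mutants, a log2 ratio of 0.76. Proteasome subunits (37 probe sets), respiratory chain subunits (56) and small RNA pathway genes (56) had 0 past 2-fold in either direction. Of 109 ribosomal protein probe sets, 0 were past 2-fold, and 96 had a negative log2 ratio. The list median was -0.16 with copper and -0.08 without, against -0.003 with copper for all members.

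Markers of sperm were mostly lower in the mutants, without reaching 2-fold in most cases. Of 38 sperm probe sets, 2 (*nspd-2* and *msp-45*) were 2-fold lower (1.44% of all members) and 34 were negative. With copper the median of all members was -0.003, and that of the 38 sperm sets was -0.34 with copper and -0.31 without. Their summed signal was 58001 and 56037 in the wild type against 46101 and 44257 in the mutants, and 2 of the 38 carry no suffix for shared probes. Germline (26), oocyte and eggshell (33), intestine (17), muscle (19), neuron (14) and pharynx (15) markers had 0 past 2-fold. In lists of this size, 0 cannot be set apart from the 1.44% lower and 1.19% higher over all members. Vulva and uterus markers had 3 of 12 probe sets at the minimum, 0 past 2-fold, with a median of 0.47 with copper and 0.02 without. None of the 6 probe sets of the male list reached the minimum. Embryo markers had 1 of 26 higher (*sdz-33*), and epidermal markers had *rol-6* lower and *elt-3* higher among 9. The part of these shifts in the differences above was not tested.

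Features that did not enter the choice of probe sets are given as descriptions. Genes of the lower sets had a median span of 1622.5 bases in the RefSeq annotation (146 of 158 placed), those of the higher sets 3355.5 bases (124 of 131 placed), and those of all members 2661 bases. Probe sets, in the order of their numbers, were cut into 10 equal groups of members. The second group held 34 of the 131 higher sets (3.09% of its members) and 5 lower sets, and its median log2 ratio was 0.07 with copper and -0.002 without. Its share of higher sets was 0.637% on the untreated arrays. The catalase controls gave a ratio of 3' to 5' signal of 4.61 and 4.62 in the wild type against 3.63 and 2.90 in the mutants, without and with copper. The actin ratio was between 1.70 and 1.85 and the *Gapdh* ratio between 0.912 and 1.08. The part of gene length, probe set number or RNA quality in the differences was not tested.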

How the data were processed

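A company ran 1 array of each condition for the authors, who deposited linear MAS5 signal intensity values, already scaled to a common trimmed mean (500.1 without the top and bottom 2%). The MAS5 version is not given in the sources used here. The deposited table has no detection calls. Probe sets were named by the platform's gene table, matched by Entrez identifier to RefSeq (assembly WBcel235), which served for names, spans and gene order only.

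Log2 ratios used the deposited signals without an offset. Signals below 100 were raised to 100 only for fold bounds and where stated. The genotype test used limma 3.58.1 in R 4.3.3 (additive genotype and copper, trend moderation, 1 residual and 5.19 prior degrees of freedom, threshold 0.05) on probe sets at 100 or more on any array, and was tested on simulated data. Python 3.11.15 with pandas 2.3.3, numpy 2.4.6 and matplotlib 3.10.9 gave the other values and the plots. Named genes were the 15 largest differences in each direction after signals were raised to 100 (1 probe set a gene), the KGB-1 pathway and study lists, and up to 5 members of each of the other lists. Other genes, such as list members past 2-fold and second probe sets, were named after their values were seen. The members, the 49 gene lists and the rules were chosen with earlier results of these data known. The cut by probe set number was chosen after seeing the data. Alternatives were other minimums, scalings, an offset, a 3-fold threshold, probe sets without a suffix, and leaving out each array. The number of arrays limits the precision.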

Additional observations from a re-analysis of the deposited data

Results flagged for a closer look

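Named genes past 2-fold under copper were flagged if the log2 ratio, mutants over wild type, had the opposite sign without copper. The untreated ratio had to exceed the SD of the hybridization controls in size. Both signs also had to hold with signals raised to 100. This rule flagged 2 genes. *hecd-1*, a HECT-type ubiquitin ligase gene, gave signals of 214 and 102 in the wild type against 119.03 and 317 in the mutants, without and with copper. Its log2 ratio was 1.63 with copper and -0.85 without. *wdfy-3*, a gene for a protein with WD repeats and a FYVE domain, had 352 and 193 in the wild type against 236 and 497 in the mutants, with ratios of 1.36 and -0.58. A second probe set of *wdfy-3* did not show opposite signs, with 0.60 and 0.16. Further sets of *wdfy-3*, with all signals below 100, gave -2.02 and -2.73 with copper, and -3.17 and -1.38 without. A second set of *hecd-1*, with all signals below 100, did not show the pattern either, with -0.08 with copper and 0.28 without. In both genes, on the sets named first, the copper-treated signal was lower than the untreated signal in the wild type and higher in the mutants. The difference between treatments was not tested, since each condition had 1 array.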

How the results depend on the processing

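No paired analysis was possible because each condition had 1 array and all carried the same replicate number. The 158 lower and 131 higher probe sets under copper became 511 and 349 with a minimum of 50, 78 and 78 with a minimum of 200, and 2524 and 2020 with none. They became 91 and 66 with an offset of 32, 78 and 78 with signals below 100 raised to 100, 96 and 86 for probe sets without a suffix, and 57 and 17 at 3-fold. Quantile normalization (158 and 135), scaling to the same median (142 and 155) and leaving out the group of probe set numbers with most higher sets, an alternative chosen after seeing the data (153 and 97), kept both counts within 1.5 times. The sets past 2-fold on both pairs, 67 lower and 17 higher, became 125 and 46 with a minimum of 50, 42 and 9 with 200, 31 and 7 with signals raised, and 38 and 8 without suffixed sets. The genotype test, with 32 lower and 6 higher, gave 52 and 11 with a minimum of 50, 100 and 41 with arrays scaled to the same median, 2 and 0 with signals raised, and 2 and 0 with genotype as the only factor, and 1 higher set with a minimum of 200. Leaving out 1 array, which also dropped the copper factor from the model, gave between 0 and 3 lower and between 0 and 1 higher sets. Fewer sets tested or fewer arrays were part of some of these settings, and otherwise the cause was not tested. List medians moved by less than the control SD of 0.19 under both scalings for all 48 lists with members, and by more for 5 without suffixed sets, 4 with a minimum of 50, 2 with 200 and 2 with signals raised. Of 259 named probe sets, 19 moved by more than that with signals raised, none under either scaling, and 0 changed sign.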
